A study of Homo sapiens with 60 samples.

Results

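Cells of the human astrocytoma line SW1783 treated for 24 h with a water extract of Zizyphi Semen at 500 µg/mL were compared with cells treated for 24 h with a water extract of Longan Arillus at 500 µg/mL. Each herb contributed 3 of the 60 RNA-seq libraries of the series, so the comparison rests on 6 libraries, chosen by their treatment labels. Zizyphi Semen is the seed of a jujube, and Longan Arillus is the fleshy coat around the longan seed. The same extracts were also tested at 100 µg/mL (medium) and 20 µg/mL (low), in 3 libraries for each herb and dose, and 3 vehicle libraries received 0.1% DMSO according to their labels. The text of the series gives another DMSO content for the vehicle, and no DMSO content is stated for the extracts. All groups share one cell line, L-15 medium (a formulation with galactose in place of glucose), heat-inactivated fetal bovine serum and the 24 h exposure. Library names place both herbs in one set (3) and the vehicle in another (A1), so a difference from vehicle and a difference between sets cannot be told apart, whereas the herbs and their doses lie within a set. The labels do not state whether the 3 libraries of a group are separate cultures, so the p-values speak of the spread among the libraries and nothing beyond it.

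Library totals of expected counts lay between 21.64 M and 35.35 M in the 21 libraries of these 7 groups. The 6 libraries of the high dose pair held 21.64 M, 26.92 M and 26.63 M for Zizyphi and 35.35 M, 23.92 M and 31.96 M for Longan. No pair of libraries held identical values, and replicates differed by more than counting noise. The astrocyte label was only partly borne out by markers. VIM, CD44, GJA1 and SLC1A3 were present, and GFAP, the defining filament of mature astrocytes, had 1 to 6 counts in each of the 6 libraries. GLUL, SOX9, NES, CHI3L1 and ID3 of the same list were also present. FABP7 was at 0 in these 6 libraries, and AQP4, ALDH1L1 and SOX2 had 0 or 1 counts in each. S100B had 1 to 6 counts and SLC1A2 had 2 to 10. VIM and CD44 are not particular to astrocytes. Of other cell types, the defining markers MOG, SOX10, AIF1, TYROBP, CD3E and C1QA were at 0 in the same 6 libraries. Other members of the oligodendrocyte and leukocyte lists were present, among them CNP (2798 to 4773 counts), CLDN11 (565 to 843) and MBP (140 to 252), and CD68 (3399 to 5742), PTPRC (191 to 323) and CSF1R (53 to 97). Fibroblast markers such as COL1A1, THY1 and FAP were also present. Members of the neuron, epithelial and endothelial lists were present too, among them TUBB3 (2606 to 4532 counts), KRT18 (2861 to 5244) and KDR (700 to 1157). Of the same 3 lists, DCX was at 0, and EPCAM and CDH5 had 0 to 2 counts. No tested member of the neuron (6), leukocyte (3), endothelial (4), epithelial (6) or fibroblast (12) marker lists was called between the herbs. CLDN11 was called among 4 tested oligodendrocyte markers. Of 10 tested astrocyte and glioma markers, CHI3L1 was called higher and ID3 lower with Zizyphi, beside 2.43% of all tested genes called. The call of CHI3L1 ended with only the compared groups in the fit, and without Longan replicate 2 or Zizyphi replicate 1 or 2. Levels below are in CPM, counts scaled to a common library total after TMM normalisation, and differences are log2 fold changes of Zizyphi over Longan with their standard error (SE). Unless another tool is named, an adjusted p is from the quasi-likelihood test of edgeR with Benjamini-Hochberg adjustment over 17063 genes, and a gene is called when it is under 0.05.

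At 500 µg/mL the herbs left the cells with similar transcriptomes that differed in a limited set of genes. Of 17063 genes tested, 414 were called (2.43%), of which 224 (1.31%) were higher and 190 (1.11%) were lower with Zizyphi. Most of these differences were small: the median size among called genes was 0.28 on the log2 scale, 52 differed at least 1.5-fold, and 12 differed at least 2-fold, 2 of them higher and 10 lower with Zizyphi. At an unadjusted p under 0.05 there were 2576 genes. The 3 libraries of one herb lay beyond all 3 of the other in 413 of the 414 called genes, against 19.2% of all tested genes. A call itself favours groups that do not overlap, so this count is no separate support. The median over all tested genes was -0.002, so the differences below stand against a centre close to 0. Leaving out 1 library reduced the count to between 210 and 343, and the fall was over 1.5-fold for each library (210 without Longan replicate 1, 231 without Longan replicate 3, 250 without Zizyphi replicate 1, 223 without Zizyphi replicate 2 and 261 without Zizyphi replicate 3) except Longan replicate 2 (343).

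**Figure D1:**
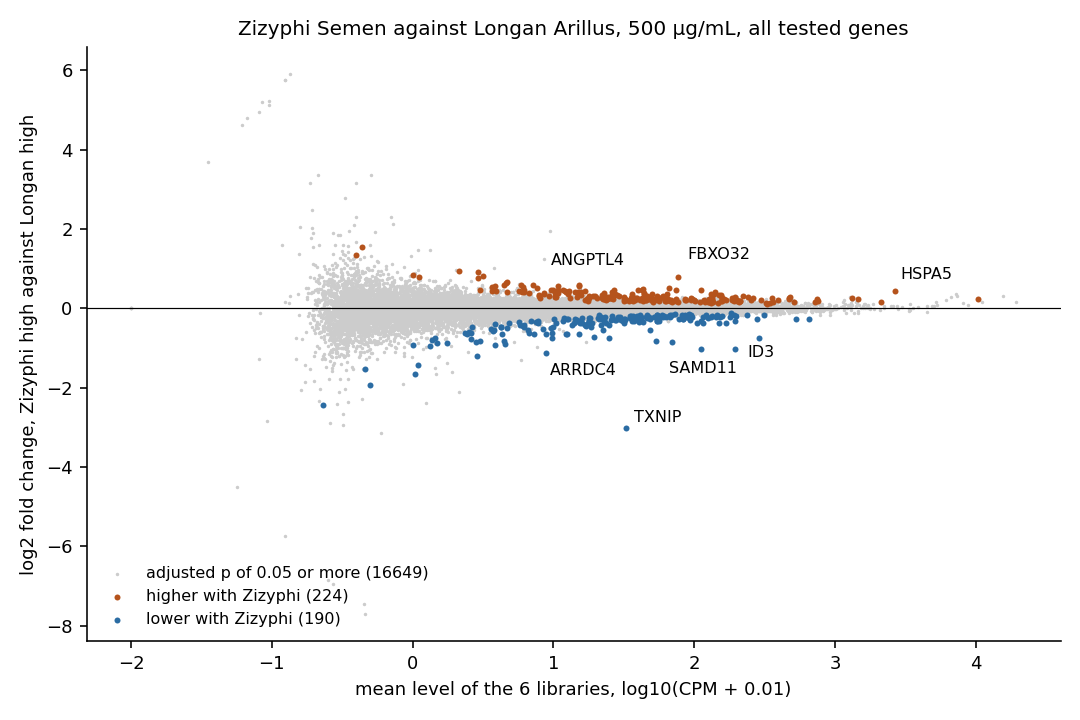
Each point is 1 of the 17063 tested genes, with its mean level over the 6 libraries as log10(CPM + 0.01) on the horizontal axis and the log2 fold change of Zizyphi against Longan at 500 µg/mL on the vertical axis. The 224 genes called higher with Zizyphi and the 190 called lower lie mostly close to 0, and TXNIP at -3.01 stands below the other called genes.

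The largest difference among called genes was in TXNIP, followed by ARRDC4 among the falls that met the naming rule. Both encode arrestin-domain proteins that hold back glucose uptake. TXNIP also binds thioredoxin, and ARRDC4 is its close relative. In many cell types their genes are switched on by the sugar-sensing factors MondoA and ChREBP with their partner Mlx, which bind a pair of E-box-like half-sites called a carbohydrate response element. Their promoters are shown because this element is the known entry point of that pathway, as RefSeq sequences of GRCh38.p14 with the matched motif in capitals. The TXNIP window is chr1:145996530-145996829 on the minus strand and the ARRDC4 window is chr15:97960453-97960752 on the plus strand, each from 250 bases before to 50 bases after the annotated start.
TXNIP: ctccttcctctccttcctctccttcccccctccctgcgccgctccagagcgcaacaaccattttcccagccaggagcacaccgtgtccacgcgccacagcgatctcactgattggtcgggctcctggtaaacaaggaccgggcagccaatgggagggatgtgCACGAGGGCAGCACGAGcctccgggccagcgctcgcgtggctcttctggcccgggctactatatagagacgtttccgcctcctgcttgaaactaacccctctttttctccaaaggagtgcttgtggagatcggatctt
ARRDC4: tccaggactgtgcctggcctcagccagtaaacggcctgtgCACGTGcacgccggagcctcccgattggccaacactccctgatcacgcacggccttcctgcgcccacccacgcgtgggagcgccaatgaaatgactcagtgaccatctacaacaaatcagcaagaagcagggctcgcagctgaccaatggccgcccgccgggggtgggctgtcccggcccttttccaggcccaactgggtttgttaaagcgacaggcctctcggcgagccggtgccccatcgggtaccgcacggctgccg
The capitals in TXNIP mark a match to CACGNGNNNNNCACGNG, searched on both strands, which 20 of 27305 promoters of the same length held (0.0732%). The capitals in ARRDC4 mark the E-box CACGTG, which 2030 of these promoters held (7.43%), and ARRDC4 had no match to the paired motif in this window. Among the 8 promoters available for the list of MondoA and ChREBP targets, 1 held the paired motif, that of TXNIP. A match describes letters only.

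TXNIP, a protein-coding gene at chromosome 1 from 145992435 to 145996600 on the minus strand of GRCh38, had 7.97, 7.35 and 6.48 CPM in the Zizyphi libraries and 59.7, 60.6 and 55.0 CPM in the Longan libraries. All 3 Longan libraries stood far above every Zizyphi library, and the vehicle libraries (10.2, 9.72 and 9.87 CPM) lay close to the Zizyphi ones. The difference was -3.01 (SE 0.08, adjusted p = 7.4e-18), an 8.07-fold lower level with Zizyphi. The Zizyphi high dose differed from its own low dose by -0.30 (SE 0.09, adjusted p = 0.078), and the Longan high dose stood above its low dose by 2.63 (SE 0.07, adjusted p = 3.9e-17). Against vehicle, Zizyphi was lower, at -0.46 (adjusted p = 0.0067), and Longan was higher, at 2.55 (adjusted p = 6.6e-17).

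ARRDC4, at chromosome 15 from 97960698 to 97973838 on the plus strand, had 5.67, 6.36 and 4.46 CPM with Zizyphi and 11.4, 12.5 and 12.3 CPM with Longan. The groups did not overlap, and vehicle (5.01, 6.45 and 4.53 CPM) covered nearly the same range as Zizyphi. The difference was -1.13 (SE 0.11, adjusted p = 1.4e-06). Of 7 tested MondoA and ChREBP targets, 0 were called higher and 2 lower, where 1.31% and 1.11% of all tested genes were. The 2 were TXNIP and ARRDC4. KLF10, a transcription factor of that list, differed by -0.09 (adjusted p = 0.43), PFKFB3, which makes an activator of glycolysis, by -0.11 (adjusted p = 0.27), and G6PC3, a glucose-6-phosphatase, by 0.05 (adjusted p = 0.64). Of 21 genes of glycolysis and glucose transport, 2 were called higher and 0 lower, and 10 had a log2 fold change above 0. These 2 were the glucose transporter SLC2A1 and the hexokinase HK2, each at 0.18. Both calls ended with only the compared groups in the fit (adjusted p of 0.097 and 0.13), with all 60 libraries (0.055 and 0.72), and without Longan replicate 3, Zizyphi replicate 2 or Zizyphi replicate 3 (adjusted p of 0.054 to 0.16). That of SLC2A1 also ended without Longan replicate 2 (adjusted p = 0.07) and that of HK2 without Longan replicate 1 (adjusted p = 0.16). The sugar content of the extracts is not given in the sources used here, and no sugar was measured.

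**Figure D2:**
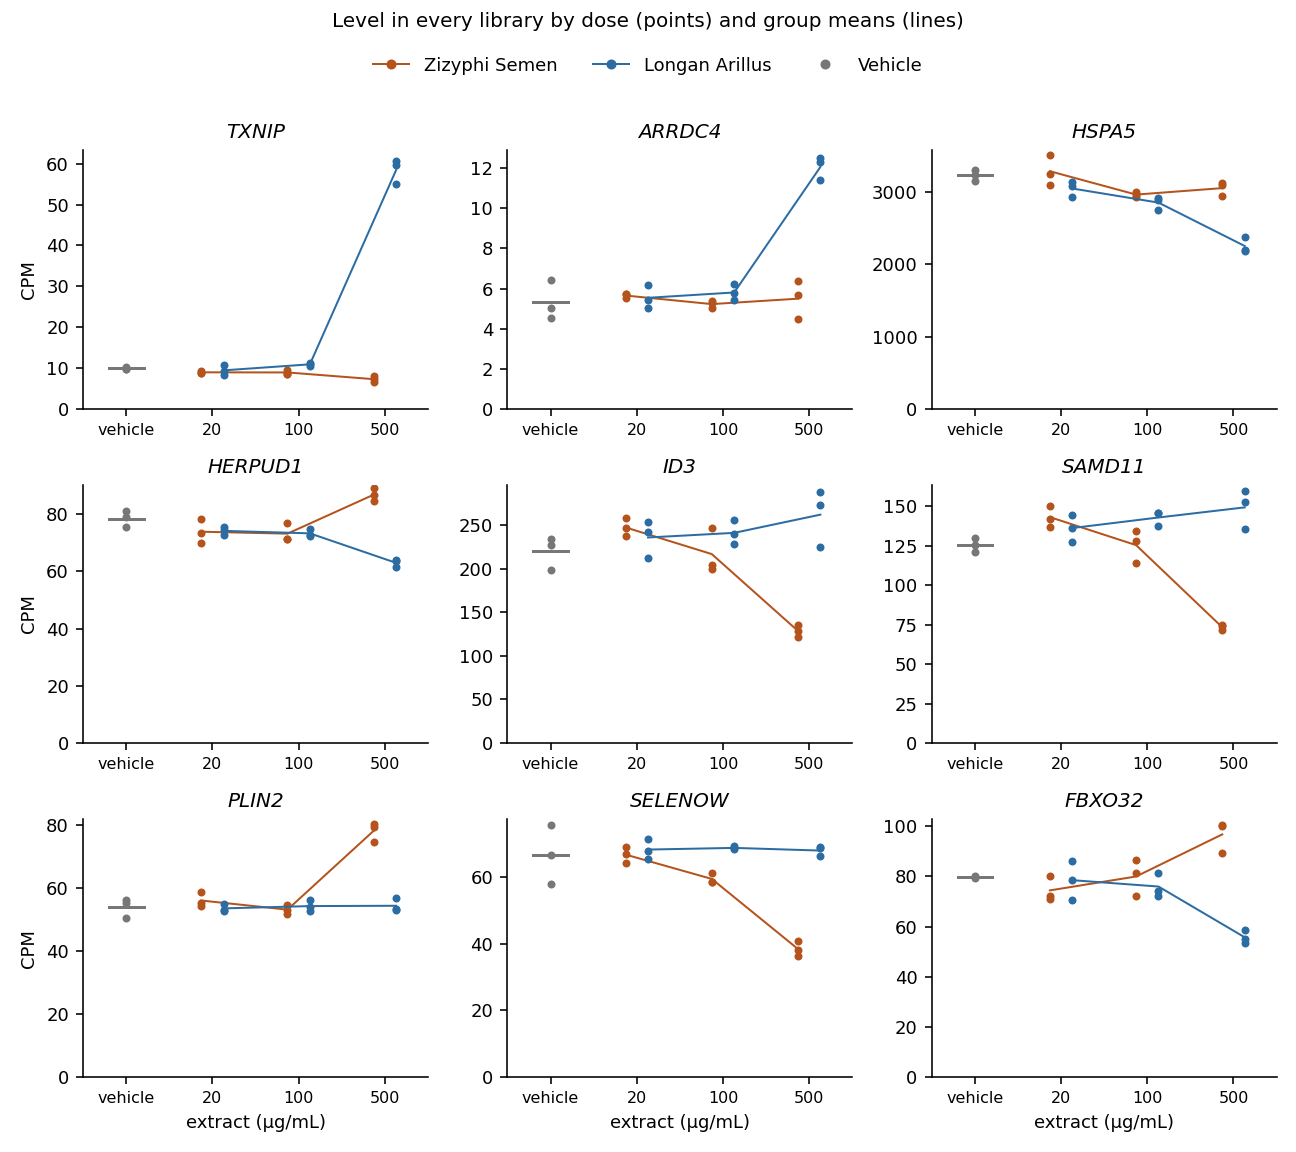
Level in CPM of 9 genes in every library (points) against extract dose in µg/mL, with vehicle at the left, Zizyphi in orange, Longan in blue and lines through the group means of 3 libraries. ID3, SAMD11 and SELENOW are low in the Zizyphi 500 µg/mL libraries, TXNIP and ARRDC4 are high only in the Longan 500 µg/mL libraries among those plotted, and HSPA5 and FBXO32 are low there.

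Genes of the endoplasmic reticulum (ER) stress response were higher with Zizyphi than with Longan. The unfolded protein response raises chaperones, folding enzymes and degradation factors when unfolded proteins gather in the ER, through the sensors IRE1, PERK and ATF6. ATF6 and XBP1 act on the ER stress element found in chaperone promoters. Of 20 genes of this response, 10 were called higher and 0 lower, where 1.31% and 1.11% of all tested genes were. The list median was 0.16, against -0.002 over all tested genes. With any 1 of the 6 libraries left out, the count of 10 became 7 or 8. It was 6 with only the compared groups in the fit and 4 with all 60 libraries. HSPA5 and HSP90B1, the major chaperones BiP and GRP94, are shown with their promoters because both hold letters that match this element. The HSPA5 window is chr9:125241294-125241593 on the minus strand and the HSP90B1 window is chr12:103930160-103930459 on the plus strand, from RefSeq GRCh38.p14, with matches to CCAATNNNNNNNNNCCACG on either strand in capitals.
HSPA5: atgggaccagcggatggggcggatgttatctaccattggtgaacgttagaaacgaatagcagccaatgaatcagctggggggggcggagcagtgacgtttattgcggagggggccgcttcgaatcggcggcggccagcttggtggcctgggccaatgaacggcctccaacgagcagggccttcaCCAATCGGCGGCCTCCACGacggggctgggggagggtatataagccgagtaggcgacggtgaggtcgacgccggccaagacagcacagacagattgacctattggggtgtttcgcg
HSP90B1: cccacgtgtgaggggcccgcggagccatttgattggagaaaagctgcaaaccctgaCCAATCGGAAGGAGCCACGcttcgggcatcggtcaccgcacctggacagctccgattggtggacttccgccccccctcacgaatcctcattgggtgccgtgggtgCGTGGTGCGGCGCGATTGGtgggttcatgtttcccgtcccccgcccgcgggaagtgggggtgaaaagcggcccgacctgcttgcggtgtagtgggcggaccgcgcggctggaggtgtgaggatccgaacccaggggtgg
This motif was found in 22 of 27305 promoters (0.0806%), and in 6 of the 19 promoters available for the list, those of CALR, CANX, CRELD2, HSP90B1, HSPA5 and XBP1. HSP90B1 holds a match on each strand.

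HSPA5 had 3123, 2953 and 3096 CPM with Zizyphi and 2203, 2191 and 2374 CPM with Longan, and the vehicle libraries had 3152, 3312 and 3244 CPM. The Longan libraries were the low ones, with the Zizyphi libraries just under the vehicle range. The difference was 0.44 (SE 0.04, adjusted p = 2.1e-06), or 1.36-fold. HERPUD1, which helps to carry unfolded proteins out for degradation, had 88.9, 84.7 and 86.6 CPM with Zizyphi and 63.5, 61.4 and 63.9 CPM with Longan (0.46, SE 0.04, adjusted p = 8.2e-07). Its high dose exceeded its low dose with Zizyphi, at 0.23 (adjusted p = 0.0041), and lay under it with Longan, at -0.23 (adjusted p = 0.0073).

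HSP90B1 had 1417, 1394 and 1458 CPM with Zizyphi and 1168, 1198 and 1227 CPM with Longan (0.25, SE 0.04, adjusted p = 0.00037). HYOU1, a large ER chaperone, differed by 0.23 (adjusted p = 0.00032) and MANF, a secreted ER stress protein, by 0.36 (adjusted p = 0.00023). With all 60 libraries in the fit, the call of MANF ended (adjusted p = 0.24). Set beside the low dose of the same herb, 2 members of this list were called higher and 1 lower with Zizyphi, where 1.02% and 1.27% of all tested genes were, and 0 higher and 9 lower with Longan, where 0.527% and 0.738% of all tested genes were. Against vehicle, 1 was called higher and 0 lower with Zizyphi (0.885% and 1.07% of all tested genes), and 0 higher and 14 lower with Longan (2.49% and 3.77%). These comparisons share libraries with the main one and are not independent of it.

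Genes that the transcription factor ATF4 switches on during amino acid or ER stress were also higher with Zizyphi. Of 27 such genes, 12 were called higher and 0 lower (median 0.19), where 1.31% and 1.11% of all tested genes were. The count of 12 depends on every library, since it was between 5 and 7 whichever of the 6 was left out. It was 7 with only the compared groups in the fit and 4 with all 60 libraries. PSAT1, an enzyme of serine synthesis, had 72.3, 72.1 and 72.7 CPM with Zizyphi and 56.5, 60.5 and 53.7 CPM with Longan (0.35, SE 0.05, adjusted p = 9.3e-05). TRIB3, a pseudokinase that feeds back on ATF4, had 32.2, 27.6 and 32.3 CPM with Zizyphi and 23.7, 24.1 and 23.6 CPM with Longan (0.37, SE 0.06, adjusted p = 0.00047). STC2, a secreted glycoprotein, differed by 0.25 (SE 0.04, adjusted p = 0.00022).

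The transcript of ATF4 itself, named here after its values were seen, had 171, 163 and 168 CPM with Zizyphi and 142, 128 and 128 CPM with Longan (0.33, SE 0.04, adjusted p = 3.6e-05), against 143, 140 and 132 CPM with vehicle. SLC7A5, a carrier of large neutral amino acids, differed by 0.27 (SE 0.04, adjusted p = 0.00047). With all 60 libraries in the fit, the calls of ATF4 (adjusted p = 0.10) and SLC7A5 (adjusted p = 0.35) ended. SLC38A1, a glutamine transporter outside the list, had 125, 139 and 126 CPM with Zizyphi and 90.8, 99.2 and 90.7 CPM with Longan (0.47, SE 0.07, adjusted p = 0.00015). Aminoacyl-tRNA synthetases load amino acids onto tRNA. Of 18 of them, 6 were called higher and 0 lower (median 0.11), where 1.31% and 1.11% of all tested genes were. That count fell to 3 without Longan replicate 2, Zizyphi replicate 1 or Zizyphi replicate 3, and to 1 with only the compared groups in the fit.

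Falls with Zizyphi included the ID genes and other targets of bone morphogenetic protein (BMP) signalling. BMP ligands bind receptor kinases that phosphorylate SMAD1, SMAD5 and SMAD9, which enter the nucleus with SMAD4 and raise ID1, ID2 and ID3. The ID proteins bind helix-loop-helix transcription factors and keep them off DNA, and SMAD6 and SMAD7 feed back to damp the signal. The lists of this pathway were drawn up after the ID genes had been seen to differ, so their counts describe these libraries only. A list of 21 targets of YAP and TGF-beta signalling, not among those added after values were seen, also holds ID1, ID2, ID3 and SMAD7. In it, 1 gene was called higher and 4 lower, which were these 4. Of its members, 9 had a log2 fold change above 0 and 12 below (median -0.02).

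ID3 had 135, 121 and 129 CPM with Zizyphi and 273, 224 and 288 CPM with Longan. Each Zizyphi library lay below all Longan libraries and below the vehicle libraries (227, 234 and 198 CPM). The difference was -1.03 (SE 0.09, adjusted p = 1.9e-07), or 2.04-fold lower. ID1 had 225, 200 and 219 CPM with Zizyphi and 351, 336 and 399 CPM with Longan (-0.75, SE 0.08, adjusted p = 3.7e-06). The vehicle libraries of ID1 (277, 263 and 237 CPM) lay between the herbs. ID2 had 15.6, 14.6 and 14 CPM with Zizyphi and 24.8, 23.5 and 24.3 CPM with Longan (-0.72, SE 0.06, adjusted p = 3.5e-08).

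ATOH8, a helix-loop-helix factor that responds to BMP, had 18.9, 17.5 and 19.7 CPM with Zizyphi and 32.7, 29.9 and 31.0 CPM with Longan (-0.74, SE 0.06, adjusted p = 8.8e-08). In all, 6 of 6 BMP target genes in the list were called lower (median -0.73), where 1.11% of all tested genes were. The count was 4 with DESeq2, with only the compared groups and with all 60 libraries, and 4 or 5 with 1 library left out. The call of ID4 ended in most of these fits (adjusted p = 0.051 with DESeq2), and ID1, ID2, ID3 and ATOH8 were also called in every fit that left out 1 library. Among 9 tested BMP inhibitors, 0 were called higher and 4 lower, where 1.31% and 1.11% of all tested genes were. SMAD6 had 12.2, 11.5 and 11.9 CPM with Zizyphi and 18.3, 19.7 and 17.7 CPM with Longan (-0.64, SE 0.07, adjusted p = 7.7e-06), and SMAD7 differed by -0.29 (SE 0.05, adjusted p = 0.0035). The count of 4 fell to 2 without Longan replicate 1 or Zizyphi replicate 2.

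SMAD9 was the 1 called gene of 4 pathway SMADs. It had 3.05, 2.36 and 2.66 CPM with Zizyphi and 4.96, 4.20 and 5.96 CPM with Longan (-0.92, SE 0.17, adjusted p = 0.003). Of 11 tested BMP ligands and receptors, 1 was called higher and 0 lower, where 1.31% and 1.11% of all tested genes were. No member was called with DESeq2, with only the compared groups, with all 60 libraries or without any library except Longan replicate 2. FAM83G, a protein known to bind SMAD1, had 45.4, 53 and 51.6 CPM with Zizyphi and 87.3, 86.1 and 95.8 CPM with Longan (-0.84, SE 0.06, adjusted p = 2e-09).

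SAMD11, a nuclear protein with a sterile alpha motif, differed about as much as ID3. It had 74.5, 71.5 and 73.9 CPM with Zizyphi, 159, 135 and 153 CPM with Longan, and 130.0, 125 and 121 CPM with vehicle. The Zizyphi libraries were the low ones (-1.03, SE 0.06, adjusted p = 6.1e-10), and the Longan high dose also exceeded vehicle, at 0.25 (adjusted p = 0.016). PGF, a growth factor of the VEGF family, had 3.14, 2.90 and 3.37 CPM with Zizyphi and 5.92, 5.91 and 5.89 CPM with Longan (-0.91, SE 0.11, adjusted p = 4.4e-05). RASL11A, a small GTPase of the Ras family, differed by -0.75 (SE 0.09, adjusted p = 2.7e-05). The non-coding RNAs SWINGN (adjusted p = 0.0016) and UCA1 (adjusted p = 0.00083) were each lower, at -0.66.

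**Figure D3:**
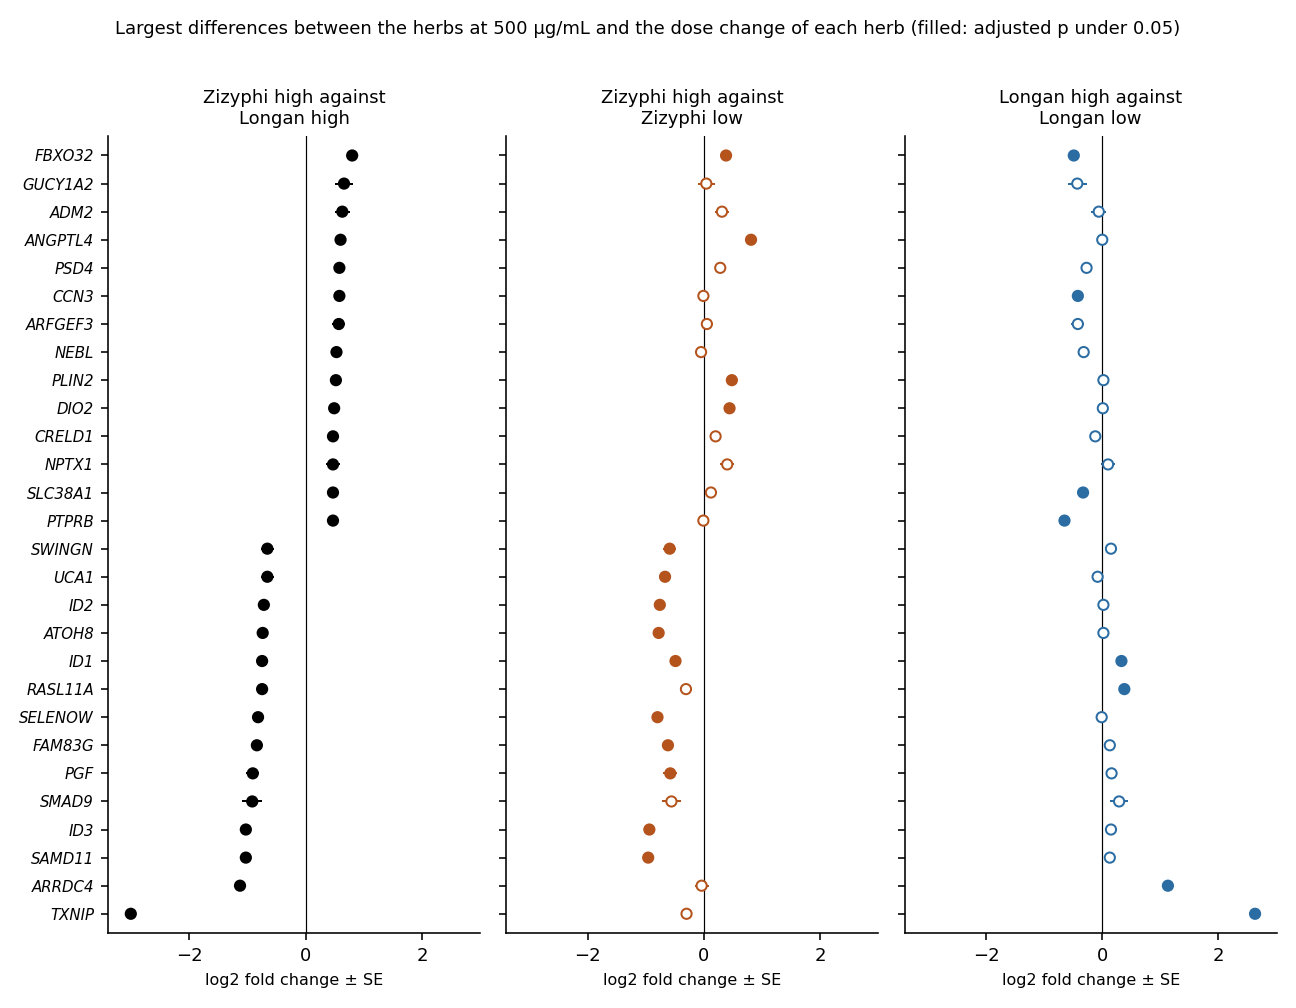
Log2 fold change of the 14 largest rises and 14 largest falls that met the naming rule, Zizyphi against Longan at 500 µg/mL (left). The high against low dose change is shown for Zizyphi (middle) and Longan (right). Bars are SE, and points are filled where the adjusted p is under 0.05. ID3, SAMD11 and SELENOW move with the Zizyphi dose, TXNIP and ARRDC4 with the Longan dose, and FBXO32 in opposite directions with the herbs.

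A small set of lipid genes was higher with Zizyphi. Fatty acids act on PPAR receptors, which raise genes for storing and burning lipid. Of 20 fatty acid synthesis and lipid storage genes, 3 were called higher and 0 lower, where 1.31% and 1.11% of all tested genes were. The list median was 0.04, so the list as a whole lay near the centre of all genes. PLIN2, the coat protein of lipid droplets, had 79.4, 74.9 and 80.6 CPM with Zizyphi, 53.2, 53.4 and 56.9 CPM with Longan, and 56.4, 50.6 and 55.3 CPM with vehicle. All 3 Zizyphi libraries lay above the others (0.52, SE 0.05, adjusted p = 3.5e-07). ANGPTL4, a secreted inhibitor of lipoprotein lipase, had 17.8, 17.1 and 19.9 CPM with Zizyphi and 12.7, 11.7 and 11.8 CPM with Longan (0.60, SE 0.07, adjusted p = 3.6e-05).

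CPT1A, the enzyme that commits fatty acids to mitochondrial import, had 55.0, 55.5 and 59.3 CPM with Zizyphi and 45.9, 44.6 and 42.7 CPM with Longan (0.35, SE 0.06, adjusted p = 0.001). For these 3 genes the high dose of Zizyphi exceeded its low dose, by 0.48 for PLIN2 (adjusted p = 1.3e-06), 0.81 for ANGPTL4 (adjusted p = 7.6e-07) and 0.40 for CPT1A (adjusted p = 0.00024). The same contrast of Longan gave 0.02, -0.00 and -0.03, none of them called. The difference between the dose changes was itself called in PLIN2 (0.45, adjusted p = 0.00089), ANGPTL4 (0.81, adjusted p = 0.00026) and CPT1A (0.43, adjusted p = 0.0098).

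FBXO32, the muscle ubiquitin ligase atrogin-1 and a known target of FOXO factors, was the largest rise among genes with at least 5 CPM that met the naming rule. It had 100.2, 100.6 and 89.5 CPM with Zizyphi, 55.2, 58.7 and 53.5 CPM with Longan, and 80.3, 79.4 and 79.9 CPM with vehicle. The herbs lay on opposite sides of vehicle, at 0.28 for Zizyphi (adjusted p = 0.043) and -0.52 for Longan (adjusted p = 0.00025), and differed by 0.80 (SE 0.07, adjusted p = 3.5e-07). Of 18 tested FOXO-responsive genes, 4 were called higher and 1 lower (median 0.14), where 1.31% and 1.11% of all tested genes were. The lower one was TXNIP. CITED2, a partner of the coactivators CBP and p300, had 160, 170 and 153 CPM with Zizyphi and 128, 116 and 117 CPM with Longan (0.41, SE 0.05, adjusted p = 7.2e-05). SOD2, the mitochondrial superoxide dismutase, differed by 0.26 (SE 0.04, adjusted p = 0.0013). IGFBP1, a secreted binder of insulin-like growth factors, differed by 0.44 (adjusted p = 0.0099), a call that ended without Longan replicate 3 (adjusted p = 0.067) or Zizyphi replicate 1 (adjusted p = 0.073), and with all 60 libraries in the fit (adjusted p = 0.092).

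The other large rises came from genes of varied function. DIO2, which makes active thyroid hormone, had 52.7, 50.6 and 48.2 CPM with Zizyphi and 37.2, 35.6 and 35.1 CPM with Longan (0.49, SE 0.06, adjusted p = 5.2e-05). CCN3, a matricellular protein, had 7.45, 6.63 and 6.93 CPM with Zizyphi and 4.39, 4.89 and 4.78 CPM with Longan (0.58, SE 0.09, adjusted p = 0.00057). PSD4, an exchange factor for ARF6, differed by 0.58 (adjusted p = 0.00056), ARFGEF3, a relative of ARF exchange factors, by 0.57 (adjusted p = 0.0035), NEBL, an actin-binding nebulin relative, by 0.53 (adjusted p = 0.002) and CRELD1, a membrane protein with EGF-like repeats, by 0.47 (adjusted p = 0.00098). PTPRB, a receptor tyrosine phosphatase, differed by 0.47 (adjusted p = 0.0035), a call that ended with all 60 libraries in the fit (adjusted p = 0.25). Calls of 3 further rises ended when a single library was left out. These were GUCY1A2, a subunit of guanylate cyclase (0.66, adjusted p of 0.058 to 0.24 without Longan replicate 1 or 3 or Zizyphi replicate 1 or 2), ADM2, a peptide hormone (0.63, adjusted p = 0.069 without Longan replicate 1), and NPTX1, a neuronal pentraxin (0.47, adjusted p of 0.062 to 0.15 without any library except Longan replicate 3). The calls of GUCY1A2 (adjusted p = 0.27) and NPTX1 (adjusted p = 0.055) also ended with all 60 libraries in the fit.

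**Figure D4:**
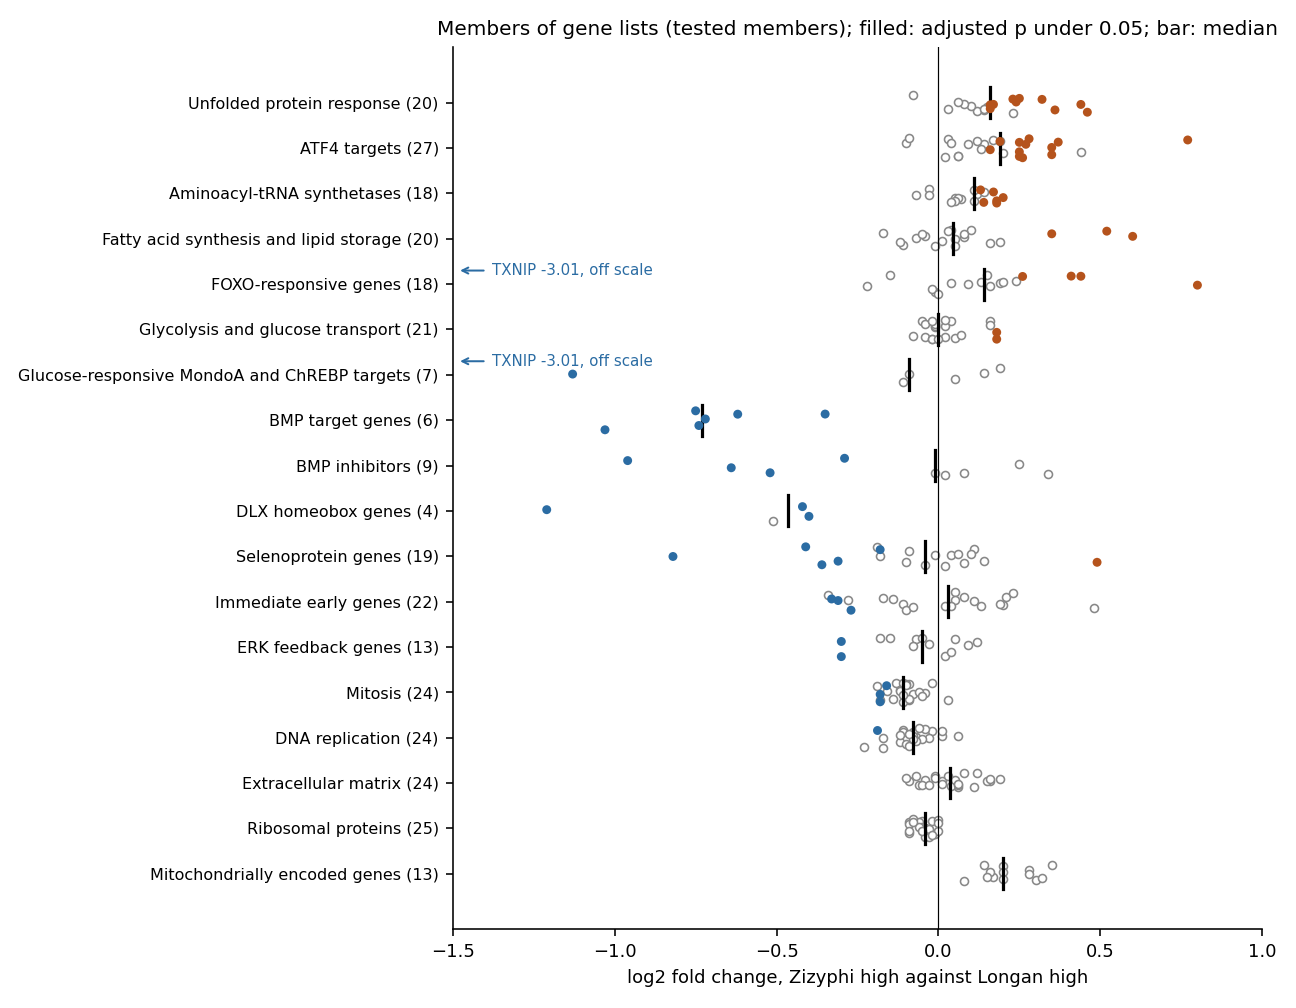
Log2 fold change of Zizyphi against Longan at 500 µg/mL for each tested member of 18 gene lists, with called genes filled (orange higher, blue lower), the list median as a bar and TXNIP (-3.01) beyond the axis. Called members of the unfolded protein response, ATF4 and tRNA synthetase lists lie to the right, those of the BMP target, BMP inhibitor and DLX lists to the left, and no member of the extracellular matrix, ribosomal and mitochondrially encoded lists is filled.

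Some signalling genes were lower with Zizyphi, where they lay near the vehicle level, than with Longan, where they lay above it. IER2, an immediate early gene, had 48.3, 50.8 and 51.3 CPM with Zizyphi, 64.1, 61.3 and 63.9 CPM with Longan, and 53, 52.5 and 49.9 CPM with vehicle (-0.33, SE 0.05, adjusted p = 0.00033). DUSP6, the phosphatase that turns off ERK, had 22.2, 23.1 and 23.9 CPM with Zizyphi, 28.0, 28.8 and 28.3 CPM with Longan, and 23.8, 22.2 and 23.3 CPM with vehicle (-0.30, SE 0.05, adjusted p = 0.00057). Over the lists, 0 of 22 immediate early genes were called higher and 3 lower, and 12 had a log2 fold change above 0 (median 0.03). Of 13 ERK feedback genes, 0 were called higher and 2 lower, and 5 were above 0 (median -0.05). Shares of all tested genes called were 1.31% higher and 1.11% lower. The count of 3 immediate early genes fell to 1 without Longan replicate 3 or Zizyphi replicate 2.

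Mitosis genes were slightly lower with Zizyphi, where they lay at the vehicle level, than with Longan, where they lay above it. Of 24 such genes, 23 had a log2 fold change below 0 (median -0.11). Among them 0 were called higher and 3 lower, where 1.31% and 1.11% of all tested genes were. The summed level of the mitosis genes was 3263 to 3312 CPM with Zizyphi, 3463 to 3619 CPM with Longan and 3197 to 3345 CPM with vehicle. Against vehicle, 0 were called with Zizyphi (median 0.01), and 8 were called higher and 0 lower with Longan (median 0.13). Over all tested genes, 0.885% were called higher and 1.07% lower with Zizyphi against vehicle, and 2.49% and 3.77% with Longan. None of the 3 calls between the herbs held with only the compared groups in the fit, and none held without Longan replicate 3. Of 24 DNA replication genes, 21 had a log2 fold change below 0 (median -0.08), and 0 were called higher and 1 lower. This was RFC2, a subunit of the clamp loader (-0.19), whose call ended with only the compared groups (adjusted p = 0.084), with all 60 libraries (adjusted p = 0.64), with the replicate block (adjusted p = 0.054) and without any library except Longan replicate 2 (adjusted p of 0.067 to 0.17). No gene was called among 24 extracellular matrix genes (median 0.04), 25 ribosomal protein genes (median -0.04), 25 proteasome genes (median -0.05) and 24 nuclear-encoded respiratory chain genes (median -0.02), where DESeq2 called 1 matrix gene and 1 respiratory chain gene. Of the ribosomal protein genes, 23 of 25 also had a log2 fold change below 0. Among 20 genes of NF-kB and cytokines, 1 was called higher and 1 lower.

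The 13 mitochondrially encoded genes all had a log2 fold change above 0 (median 0.20), and none was called. With no filter on low counts 10 of them were called, without Zizyphi replicate 3 there were 3, and with only the compared groups 1. The share of counts on the mitochondrial genome averaged 10.9% ± 1.03 in Zizyphi libraries and 9.62% ± 0.401 in Longan libraries (SD, n = 3 each), a difference of 1.31 percentage points with an exact two-sided permutation p of 0.2, where 0.1 is the smallest this design allows. With the mitochondrial genes left out, 413 genes were called.

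At the lower doses the herbs were much harder to tell apart. In edgeR, 0 of 17063 genes (0%) were called between Zizyphi and Longan at 100 µg/mL and 0 (0%) at 20 µg/mL. At an unadjusted p under 0.05 there were 672 genes at 100 µg/mL and 831 at 20 µg/mL, and DESeq2 called 2 and 1. Of the 414 genes called at 500 µg/mL, 324 (78.3%) had the same sign at 100 µg/mL, against 54.0% of all tested genes. At 20 µg/mL the same held for 212 (51.2%), against 50.7% of all tested genes. The genes called higher at 500 µg/mL had a median of 0.27 there, 0.04 at 100 µg/mL and 0.01 at 20 µg/mL, and those called lower had -0.31, -0.06 and 0.01. TXNIP had 8.54, 9.63 and 8.56 CPM with Zizyphi and 10.9, 11.3 and 10.5 CPM with Longan at 100 µg/mL (-0.29, adjusted p = 1). SAMD11 had 128, 114 and 134 CPM with Zizyphi and 145, 146 and 137 CPM with Longan at that dose (-0.19, adjusted p = 1).

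Both herbs also had dose changes of their own, given side by side here because they share libraries with the comparison at 500 µg/mL. Zizyphi high against low had 390 called genes (2.29%), 174 higher and 216 lower. Longan high against low had 216 (1.27%), 90 higher and 126 lower. The dose change differed between the herbs in 109 genes (0.639%), with 41 (0.24%) above and 68 (0.399%) below 0 for Zizyphi less Longan. ID2, ATOH8 and SELENOW fell with the Zizyphi dose, at -0.76, -0.78 and -0.80 (adjusted p of 2.8e-08, 6.4e-08 and 1.6e-07), whereas the Longan dose gave 0.02, 0.02 and -0.01 with no call. HSPA5 gave -0.11 with the Zizyphi dose (adjusted p = 0.26) and -0.44 with the Longan dose (adjusted p = 7.1e-06). FAM13B, named by its change with the Longan dose, had 48.9, 52.4 and 45.1 CPM with Zizyphi, 35.3, 36.3 and 35.6 CPM with Longan, and 60.4, 60.6 and 62.7 CPM with vehicle. It fell with both doses, at -0.30 for Zizyphi (adjusted p = 0.0015) and -0.71 for Longan (adjusted p = 2.1e-08), and the difference between herbs was 0.45 (adjusted p = 1.6e-05).

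The cytokines CXCL8, a neutrophil attractant, and LIF, an IL-6 family member, rose with the dose of both herbs. CXCL8 had 6.24, 5.79 and 5.58 CPM with Zizyphi, 5.41, 5.50 and 4.47 CPM with Longan, and 2.52, 3.09 and 3.20 CPM with vehicle. Its dose change was 1.23 for Zizyphi (adjusted p = 9.1e-07) and 0.70 for Longan (adjusted p = 0.0024), and the herbs at 500 µg/mL differed by 0.20 (SE 0.11, adjusted p = 0.41). LIF rose by 0.64 with the Zizyphi dose (adjusted p = 1e-06) and by 0.40 with the Longan dose (adjusted p = 0.0012), and the herbs differed by 0.11 (SE 0.06, adjusted p = 0.37). Against vehicle, Zizyphi had 334 called genes (1.96%), 151 higher and 183 lower, and Longan had 1068 (6.26%), 425 higher and 643 lower, counts that also hold any difference between library sets.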

How the data were processed

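RNA from SW1783 cells was made into directional mRNA libraries and sequenced on an MGI machine as read pairs of 100 bp, as the labels' protocols state. The authors deposited expected counts per gene identifier, not normalised, for all 60 libraries. Per the submitters' processing notes, Trim Galore 0.6.5, STAR 2.7.3a, RSEM 1.3.3 and FastQC 0.11.9 were used with GRCh38. Annotation release and strand setting: not given in the sources used here. Reads of near-identical copies or antisense partners cannot be told apart. All expected counts were rounded to whole numbers before use (11.02% of the deposited values were not whole). Symbols were found for 56558 of 60675 identifiers, and gene coordinates came from GENCODE release 29.

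One fit in edgeR 4.0.16 (R 4.3.3) covered 21 libraries, 7 groups of 3 with a mean per group, TMM normalisation and the expression filter with a minimum count of 10. It had 14 residual degrees of freedom and a biological coefficient of variation of 4.76%. The other libraries were kept out with earlier results known. With all 60 libraries 180 genes were called, and 508 with all except Liriopis_high replicate 1. Fold changes were called at an adjusted p under 0.05. The fit was tested on simulated counts with known changes. It called 37 of 80 genes changed 1.25-fold, 39 of 60 changed 1.5-fold and 52 of 60 changed 2-fold. Of 16579 unchanged genes, 7 were called. The simulated counts were drawn from the kind of model the fit assumes, with its own dispersions and independent libraries. Apart from the set changes, every group had the Longan high dose level. Dose effects and deviations shared by same-numbered libraries are therefore not covered by this test.

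The alternatives were DESeq2 1.42.0 as test, its size factors, other filters, other sets of libraries, a replicate block, and leaving out each library. The compared groups, the gene lists and the rule for names were chosen with earlier results of these data known, and the BMP, DLX and selenoprotein lists after values were seen, so none is independent support. Named genes had a call, groups that did not overlap and at least 5 CPM, with the 14 largest rises and falls, the 3 largest of each dose change and up to 4 members of each list eligible. ATF4, DLX3 and genes of the added lists outside that rule were named after their values were seen. HSP90B1, IGFBP1, G6PC3 and several cell type markers are also named outside that rule. Promoters came from RefSeq tables. Their motifs were counted on both strands.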

Additional observations from a re-analysis of the deposited data

Results flagged for a closer look

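The change between the high and the low dose differed between Zizyphi and Longan in 109 genes by the interaction term of the edgeR fit (adjusted p under 0.05), and 1763 genes had an unadjusted p under 0.05. Values below are the log2 dose change of Zizyphi less that of Longan. Among genes whose values are given in the text, the difference was above 0 in FBXO32 (0.87), ANGPTL4 (0.81), PTPRB (0.64), PSD4 (0.55), HERPUD1 (0.47), PLIN2 (0.45), SLC38A1 (0.45), DIO2 (0.43), CPT1A (0.43), FAM13B (0.41), CITED2 (0.39), MANF (0.38), HSPA5 (0.33), ATF4 (0.32), SQSTM1 (0.31), PSAT1 (0.30), SLC7A5 (0.30), SOD2 (0.27) and STC2 (0.26). It was below 0 in TXNIP (-2.93), DLX3 (-1.32), ARRDC4 (-1.17), ID3 (-1.10), SAMD11 (-1.10), ID1 (-0.82), ATOH8 (-0.80), SELENOW (-0.79), ID2 (-0.77), FAM83G (-0.75), PGF (-0.74), SWINGN (-0.74), RASL11A (-0.70), SMAD6 (-0.68), DLX2 (-0.55), DLX1 (-0.42), IER2 (-0.40) and DUSP6 (-0.31).

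The values behind these differences were of several kinds. In TXNIP, ARRDC4, PTPRB, SLC38A1, RASL11A, HSPA5, MANF, PSAT1, SLC7A5, SQSTM1, IER2 and DUSP6 the dose change was called with Longan and not with Zizyphi. In ANGPTL4, PLIN2, DIO2, ID2, ID3, ATOH8, SAMD11, SELENOW, FAM83G, PGF, SWINGN, CPT1A, STC2, ATF4, SOD2, SMAD6, DLX1, DLX2 and DLX3 it was called with Zizyphi and not with Longan. FBXO32, HERPUD1 and ID1 were called with both herbs in opposite directions, at 0.38 with Zizyphi and -0.49 with Longan for FBXO32, at 0.23 with Zizyphi and -0.23 with Longan for HERPUD1, and at -0.49 with Zizyphi and 0.33 with Longan for ID1. FAM13B fell with both herbs, by less with Zizyphi (-0.30) than with Longan (-0.71). PSD4 and CITED2 were called with neither herb.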

How the results depend on the processing

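Between Zizyphi and Longan at 500 µg/mL, 414 became 734 with no filter on low counts, 246 with only the compared groups, 180 with all 60 libraries and 210 to 343 with 1 library left out. It was 508 with the 59 libraries other than Liriopis_high replicate 1 and 484 with DESeq2. The pairs at 100 and 20 µg/mL gave 91 and 142 calls with no filter and 2 and 1 with DESeq2. In the same order (no filter, only the compared groups, all 60 libraries, 1 library left out), Zizyphi high against low gave 586, 133, 120 and 174 to 326, and Longan high against low gave 668, 68, 44 and 67 to 199. This last comparison gave 331 with DESeq2 and 329 without Liriopis_high replicate 1. The difference between the dose changes gave 334, 62, 40 and 64 to 97, Zizyphi against vehicle gave 569, 152, 108 and 131 to 304, and Longan against vehicle gave 1623, 479, 150 and 288 to 1486. The fits differ in the libraries and genes they hold, and the cause of these moves was not tested further. The difference in mitochondrial share ran from 0.793 to 1.82 percentage points with 1 library left out.

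Of 1472 combinations of a gene and a setting, 1309 kept direction and side of the threshold, 161 lost a call and 1 gained one. The 1 reversal was BCYRN1, at -0.25 with all libraries and -0.41 to 0.10 with 1 left out (0.10 without Longan replicate 3), and reads of this gene are shared with near-identical copies. Same-numbered libraries of the herbs correlated at 0.209, 0.199 and 0.0393 in their deviations from the group means over 10228 genes. Libraries of different numbers correlated at -0.113, -0.0836, -0.259, 0.041, 0.0794 and -0.11. Zizyphi replicates 1 and 2 each correlated best with the Longan library of the same number. Zizyphi replicate 3 correlated best with Longan replicate 1 (0.0794). The main fit did not take the numbers as pairs, and whether same-numbered libraries share an origin was not tested. With the replicate block, 367 genes were called.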

Other observations

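Genes for selenoproteins, which carry selenocysteine and mostly act in redox defence, differed in several members, and the list was drawn up after SELENOW had been seen to fall. Of 19 tested members, 1 was called higher and 5 lower with Zizyphi than with Longan at 500 µg/mL (median -0.04), beside 2.43% of all tested genes called. SELENOW, a small redox protein, had 40.8, 36.3 and 38.0 CPM with Zizyphi, 68.8, 68.5 and 66.0 CPM with Longan, and 75.3, 66.3 and 57.8 CPM with vehicle. The Zizyphi libraries lay below all others (-0.82, SE 0.07, adjusted p = 6.5e-08 in edgeR), and at 100 µg/mL the values were 58.4, 61.2 and 58.3 CPM with Zizyphi and 69.0, 68.2 and 68.5 CPM with Longan (-0.21, adjusted p = 1). GPX1, a glutathione peroxidase, differed by -0.36 (adjusted p = 0.0099) and SELENOH by -0.41 (adjusted p = 0.012). The count of 6 calls fell to 3 without Longan replicate 1, Zizyphi replicate 2 or Zizyphi replicate 3, and to 2 with all 60 libraries, where GPX1 (adjusted p = 0.62) and SELENOH (adjusted p = 0.65) were not called. The member called higher was DIO2.

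DLX homeobox genes, transcription factors of limb, craniofacial and forebrain development, were also drawn up as a list after values were seen. Of 4 tested members, 0 were called higher and 3 lower, where 1.31% and 1.11% of all tested genes were. These 3 calls held without each of the 6 libraries. DLX3 had 1.88, 1.68 and 1.61 CPM with Zizyphi, 4.39, 4.12 and 3.39 CPM with Longan, and 2.81, 3.51 and 3.66 CPM with vehicle (-1.21, SE 0.14, adjusted p = 2e-05). DLX1 differed by -0.40 (adjusted p = 0.0012) and DLX2 by -0.42 (adjusted p = 0.001). The genes DLX1 and DLX2 are neighbours on chromosome 2.

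SQSTM1, the autophagy receptor p62, had 532, 508 and 554 CPM with Zizyphi, 442, 422 and 439 CPM with Longan, and 541, 512 and 514 CPM with vehicle (0.29, SE 0.04, adjusted p = 0.00033). Its dose change was 0.00 with Zizyphi, with no call, and -0.31 with Longan (adjusted p = 0.0005). IL11, a cytokine of the IL-6 family, had 50.2, 50.9 and 51.0 CPM with Zizyphi, 62.7, 57.1 and 63.6 CPM with Longan, and 69.2, 65.4 and 70.7 CPM with vehicle (-0.27, SE 0.05, adjusted p = 0.0033).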
